A study of Rattus norvegicus with 8 samples.

Results

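The genes described here are the dual-specificity MAP kinase phosphatases of rat thymocytes, the enzymes that switch MAP kinases off. They are Dusp1, Dusp2, Dusp4, Dusp5, Dusp6, Dusp7, Dusp8, Dusp9, Dusp10 and Dusp16, chosen by gene name on the array, after removal of the ending _predicted that the array gives to gene models of its time. All 10 genes had a probe and each had only 1, so 10 of the 41012 non-control probes, which carry 35561 gene and transcript names, are described in depth. After 6 hours with the synthetic glucocorticoid dexamethasone, Dusp1 rose 8.26-fold and was the only member called by the test. Dusp8 lay 2.69-fold higher, with every treated array above every untreated one, but did not pass the test. The remaining 8 genes had overlapping arrays.

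Primary thymocytes, the immature T cells of the thymus, came from adrenalectomized male Sprague-Dawley rats, with the thymi of 3 animals pooled for a preparation. Adrenalectomy removes the main source of the animal's own glucocorticoids, and it was shared by all samples. The cultures lasted 6 hours. The Control group (4 arrays) received no hormone and the Dex group (4 arrays) received dexamethasone at 100 nM. RNA was labeled in 1 color and hybridized to Agilent Whole Rat Genome arrays of 60-base probes. The labels do not say which cultures shared a preparation, so p-values measure the spread between these arrays, which may be technical in part.

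MAP kinases (ERK, JNK and p38) carry signals from receptors to the nucleus and are active only while a threonine and a tyrosine of their activation loop are both phosphorylated. Dual-specificity phosphatases remove both phosphates. One subgroup is nuclear and inducible, one is cytoplasmic and prefers ERK, and one prefers JNK and p38. In the thymus, ERK signaling downstream of the T cell receptor takes part in positive selection, and glucocorticoids kill immature thymocytes by apoptosis. Dusp1 is known from other cells as a gene that glucocorticoids induce.

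The probe sequences are shown for 3 genes, since genes of a family can cross-hybridize. Dusp1 is the called gene, Dusp2 is a nuclear relative that overlapped between the groups, and Dusp8 is the gene that stood apart without passing. Each is the 60-base oligonucleotide of the array, read 5′ to 3′, and capitals mark the longest run shared by the Dusp1 and Dusp2 probes.
Dusp1: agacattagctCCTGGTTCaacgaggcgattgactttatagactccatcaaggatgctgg
Dusp2: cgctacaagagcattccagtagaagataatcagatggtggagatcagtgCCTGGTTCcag
Dusp8: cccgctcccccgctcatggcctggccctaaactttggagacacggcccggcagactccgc
That run was 8 bases long, and no pair among the 45 pairs of member probes shared a longer one. The highest identity of any pair, over alignments of at least 40 bases without gaps, was 52.5%. In the array's own annotation on genome build rn3, the Dusp1 probe lay at chr10:16945391-16945710 on the plus strand. That span of 320 bases is longer than the probe, as it is for Dusp4 (7791 bases) and Dusp7 (2557 bases). These probes were therefore placed with a gap in their alignment to the genome. The Dusp2 probe lay at chr3:114745348-114745407 on the plus strand and the Dusp8 probe at chr1:202375621-202375680 on the minus strand. The files do not say in which exon a probe lies. The Dusp8 probe was 70% G and C, more than 99.6% of all probes, against 46.7% for Dusp1 and a median of 43.3% over the array.

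The 250 bases before the start of Dusp1 and Dusp2 are shown because both genes encode nuclear phosphatases that stimuli induce, and 1 was called here while the other was not. They are from RefSeq on build GRCr8, Dusp1 at chr10:17184603-17184852 and Dusp2 at chr3:135009386-135009635, both on the plus strand. Capitals mark the cyclic AMP response element (CRE, TGACGTCA) and the E-box (CACGTG), each of which reads the same on both strands.
Dusp1: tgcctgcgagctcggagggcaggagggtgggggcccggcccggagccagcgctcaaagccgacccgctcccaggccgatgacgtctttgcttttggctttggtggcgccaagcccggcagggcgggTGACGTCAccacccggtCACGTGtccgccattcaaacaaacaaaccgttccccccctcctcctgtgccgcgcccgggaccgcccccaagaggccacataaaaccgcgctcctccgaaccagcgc
Dusp2: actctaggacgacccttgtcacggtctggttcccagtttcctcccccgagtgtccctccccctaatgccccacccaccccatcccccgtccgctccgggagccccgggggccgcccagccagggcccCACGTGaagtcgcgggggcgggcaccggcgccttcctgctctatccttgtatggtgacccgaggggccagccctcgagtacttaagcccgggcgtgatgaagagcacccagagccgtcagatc
The Dusp1 window held a CRE 124 bases and an E-box 107 bases before the start, and the Dusp2 window held an E-box 123 bases before it. Of 33469 rat promoter windows of this length, 1.59% held a CRE and 5.59% an E-box. Promoter windows were found for 9 of the members, all but Dusp4. None of these 9 windows held AGAACA, a core motif of glucocorticoid receptor sites, on either strand, which 17.5% of all windows held. Dusp5 held 2 CArG boxes, 82 and 72 bases before its start, a motif in 1.5% of windows. A letter match is not a bound site, and receptor sites outside these windows were not searched.

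Signals below are log2 values, quantile normalized between arrays, so that a difference of 1 is a doubling. A gene was called when limma's p, adjusted by Benjamini-Hochberg over all 41012 probes, was below 0.05. Over the array, 319 probes were called (0.778%), of which 231 were higher in Dex (0.563%) and 88 lower (0.215%). Of the 10 members, 1 was called, and it was higher. All 4 Dex arrays lay above all 4 Control arrays for 2 members, Dusp1 and Dusp8, and for 4.60% of the 40996 probes with a value on every array. Without adjustment, the same 2 members had a p below 0.05, as did 4327 of all probes (10.6%). With so few members these shares are a description.

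**Figure D1:**
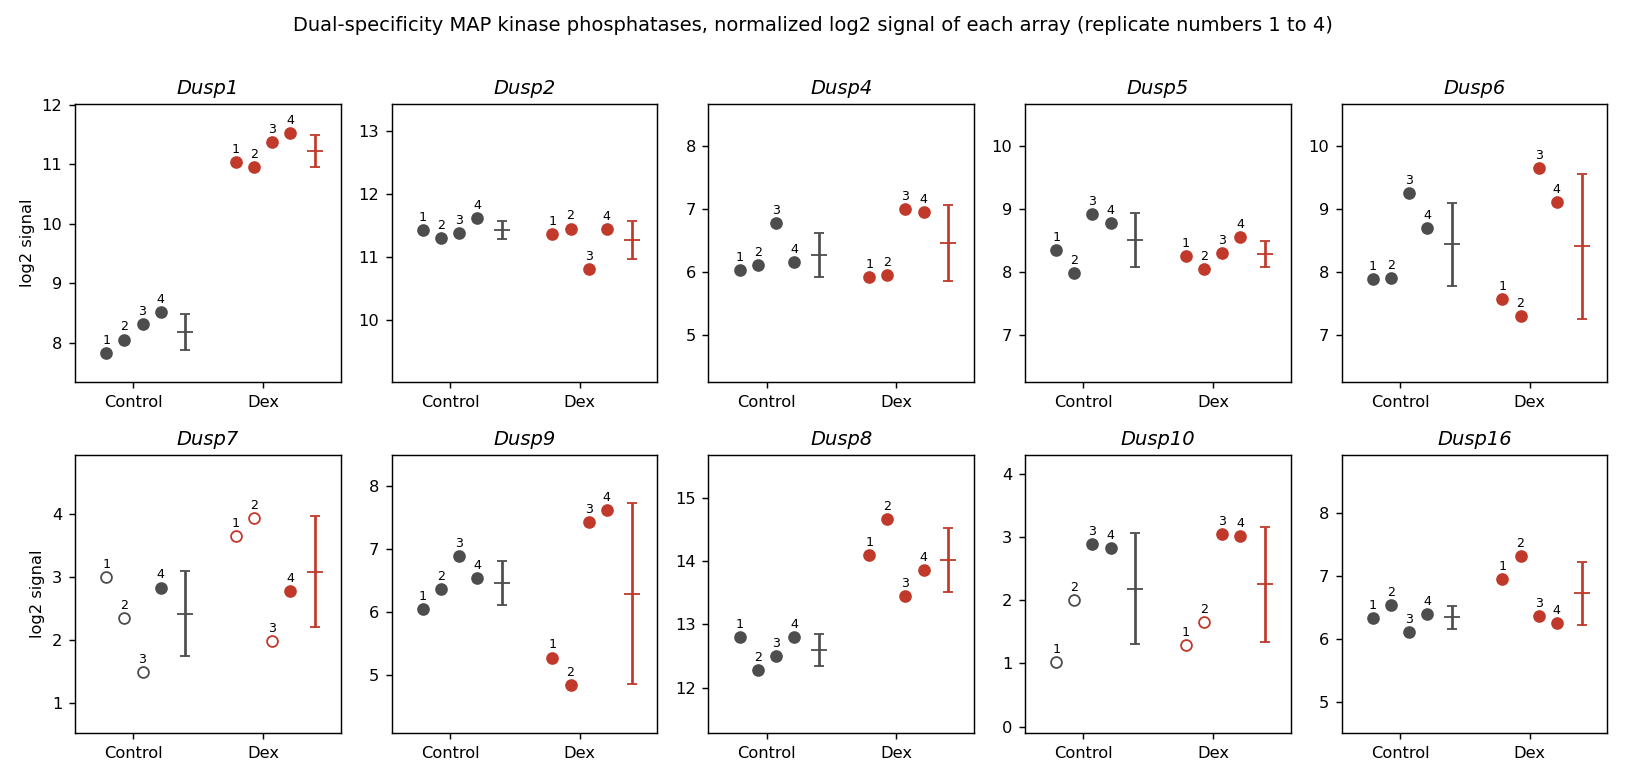
Normalized log2 signal (vertical axis, 1 panel a gene) of the 10 phosphatase genes on the 4 Control arrays (gray) and the 4 Dex arrays (red), with replicate numbers, and with the mean and SD of each group as a bar at its right. Open circles were not well above background on that array, and the groups lie apart only for Dusp1 and Dusp8.

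Among the nuclear inducible phosphatases, Dusp1 acts on p38, JNK and ERK. Its log2 signal on Control arrays 1 to 4 was 7.83, 8.06, 8.31 and 8.52. On Dex arrays 1 to 4 it was 11.05, 10.95, 11.38 and 11.52. The lowest Dex array stood 2.43 above the highest Control array. The group means were 8.18 ± 0.30 (SD, n = 4) and 11.23 ± 0.27 (SD, n = 4), a log2 difference of 3.05 (SE 0.21) and a fold of 8.26 with a 95% confidence interval of 5.87 to 11.6. Dusp1 was probe 22 of 41012 by p (limma, adjusted p = 0.000927). Cells with more Dusp1 RNA and a larger share of cells that hold it cannot be told apart in these mixed cultures. The separation was present before normalization, where the scanner intensities of Dusp1 ran from 252 to 441 in Control and from 1641 to 2983 in Dex.

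The Dusp1 difference was even across replicates. Dex minus Control within replicate numbers 1 to 4 was 3.22, 2.90, 3.07 and 3.00 on the log2 scale. Within replicates 1 and 2 it was 3.06 and within replicates 3 and 4 it was 3.04. On the only slide that held both groups, with 1 array of each, it was 3.55. With the replicate number as a block the adjusted p was 0.0141 (limma). With slide as a fixed block, which leaves only that 1 array of each group to compare, it was 0.136 and Dusp1 was not called.

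The other nuclear members were not called. Dusp2, a phosphatase of activated lymphocytes, read 11.43, 11.30, 11.38 and 11.63 on Control arrays 1 to 4 and 11.36, 11.45, 10.81 and 11.44 on Dex arrays 1 to 4. The groups overlapped, and Dex 3 alone lay below the rest. Its difference was -0.17 with a 95% confidence interval from -0.61 to 0.27 (limma, adjusted p = 0.819), so the interval leaves out a rise of the size of Dusp1. Dusp4, which acts on ERK and JNK, ran from 6.03 to 6.78 in Control and from 5.91 to 7.0 in Dex, with a difference of 0.19 (-0.56 to 0.93, limma adjusted p = 0.887). Dusp5, which acts on ERK in the nucleus, ran from 7.98 to 8.92 in Control and from 8.04 to 8.55 in Dex. Its difference was -0.22 (-0.77 to 0.34, limma adjusted p = 0.810). The confidence intervals of all 3 genes ended below that of Dusp1, which began at 2.55.

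The cytoplasmic members, which prefer ERK, overlapped between the groups, and the SDs of their Dex arrays ran from 0.88 to 1.44. Dusp6 is known as a feedback inhibitor that ERK activity itself induces. Its signal was 7.89, 7.91, 9.25 and 8.71 on Control arrays 1 to 4, and 7.58, 7.30, 9.66 and 9.11 on Dex arrays 1 to 4. In both groups replicates 3 and 4 were higher than replicates 1 and 2. The difference of the means was -0.03, and its confidence interval from -1.37 to 1.32 leaves a change of more than 2-fold in either direction possible (limma, adjusted p = 0.993). Dusp9 read 6.05, 6.37, 6.89 and 6.54 in Control and 5.28, 4.84, 7.42 and 7.62 in Dex. Its Dex replicates 1 and 2 lay below all Control arrays and its Dex replicates 3 and 4 above them all. The mean difference was -0.17 (-1.66 to 1.31, limma adjusted p = 0.951). Dusp7 was well above background on only 1 array of each group. It ran from 1.49 to 3.00 in Control and from 1.98 to 3.92 in Dex, a difference of 0.66 (-0.47 to 1.80, limma adjusted p = 0.713).

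The members that prefer JNK and p38 held the other gene with separate groups. Dusp8 read 12.80, 12.28, 12.49 and 12.80 on Control arrays 1 to 4, and 14.11, 14.68, 13.45 and 13.86 on Dex arrays 1 to 4. All Dex arrays were higher, by a gap of 0.65 between the groups. The means were 12.59 ± 0.25 and 14.02 ± 0.51 (SD, n = 4 each), a log2 difference of 1.43 (SE 0.28), and a fold of 2.69 with a 95% confidence interval of 1.74 to 4.18. It missed the threshold over all probes (limma, adjusted p = 0.0738). Dusp8 was less even across replicates than Dusp1. The difference was 1.31, 2.39, 0.96 and 1.06 within replicate numbers 1 to 4, and 0.65 on the slide that held both groups.

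The Dusp8 value is set here beside measures of the arrays and of the probe, as a description. Before normalization, its scanner intensity was 26904 and 41919 on Dex 1 and Dex 2, but 6450 and 8029 on Dex 3 and Dex 4, inside the Control range of 4586 to 8575. The 75th percentile of intensity over all probes was 266.3 and 263.8 on Dex 3 and Dex 4, against 317.8 to 428.1 on the other arrays. The 97 probes within 2.5 points of the G and C share of the Dusp8 probe had a median log2 difference of 0.39, against 0.00 over all probes. When each array's trend on G and C share was removed, Dusp8 differed by 0.97 (limma, adjusted p = 0.316) and Dusp1 by 2.99 (limma, adjusted p = 0.000848). It passed the threshold in 6 of 20 alternative settings and was higher in Dex in all 20.

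The other members of this subgroup overlapped. Dusp16, which acts on JNK, ran from 6.11 to 6.53 in Control and from 6.25 to 7.31 in Dex, a difference of 0.38 (-0.22 to 0.98, limma adjusted p = 0.690). Its Dex replicates 1 and 2 were higher than all Control arrays, while Dex 3 and Dex 4 lay inside the Control range. Dusp10, which acts on p38 and JNK, was well above background on replicates 3 and 4 of each group and on no other array. It ran from 1.03 to 2.90 in Control and from 1.29 to 3.06 in Dex, with a difference of 0.07 (-1.21 to 1.35, limma adjusted p = 0.978).

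**Figure D2:**
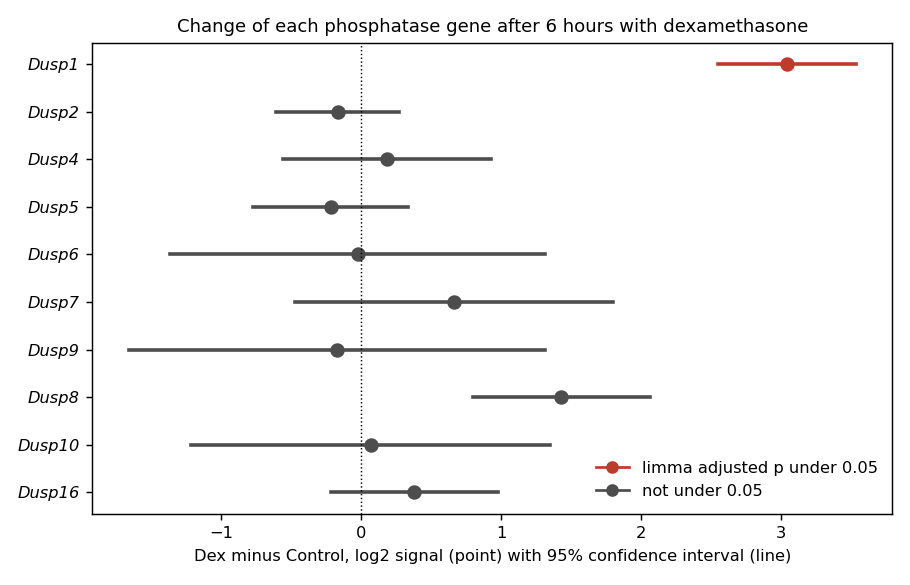
Log2 difference Dex minus Control of each phosphatase gene (point) with its 95% confidence interval from limma (line), 4 arrays a group, with red for an adjusted p under 0.05. The intervals of Dusp1 (2.55 to 3.54) and Dusp8 (0.80 to 2.06) lie above 0, and the other 8 include it.

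Several members were split by replicate number within a group. In Dex, the mean of replicates 3 and 4 minus that of replicates 1 and 2 was 2.46 for Dusp9, 1.95 for Dusp6, 1.56 for Dusp10 and 1.04 for Dusp4. It was -1.40 for Dusp7, -0.82 for Dusp16 and -0.74 for Dusp8, and only 0.45 for Dusp1. In Control the same difference was smaller for Dusp9, at 0.50, and for Dusp4, at 0.39, while Dusp6 and Dusp10 still had 1.08 and 1.35. This split was not particular to the phosphatases. Over all probes its median size was 0.708 in Dex and 0.274 in Control, and it was 1 or more for 35.9% of probes in Dex and 6.60% in Control. Dex minus Control had opposite signs in replicates 1 and 2 and in replicates 3 and 4 for 5 of the 10 members (Dusp2, Dusp4, Dusp6, Dusp9 and Dusp10) and for 55.5% of all probes. For the other 5, Dusp1, Dusp5, Dusp7, Dusp8 and Dusp16, the sign was the same.

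**Figure D3:**
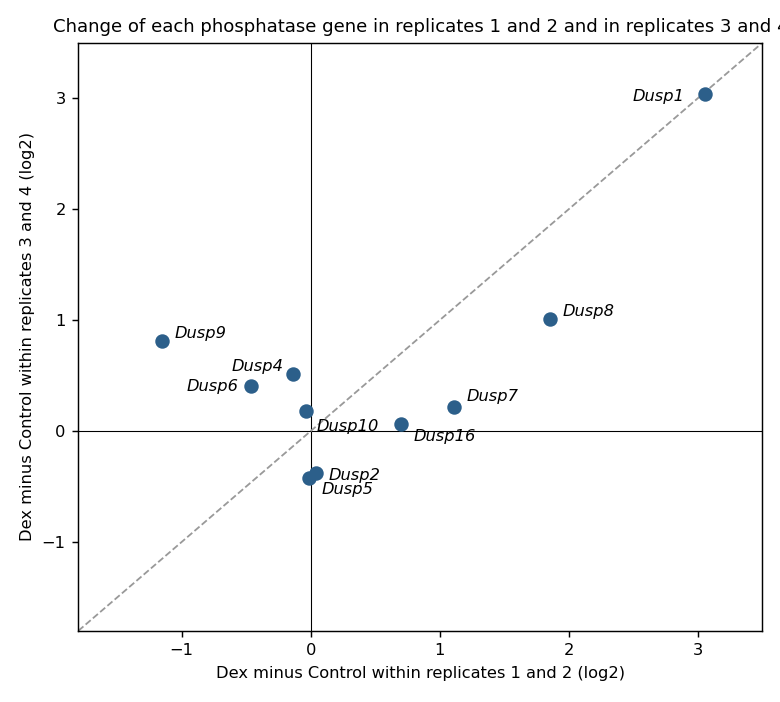
Log2 difference Dex minus Control of each phosphatase gene within replicates 1 and 2 (horizontal axis) and within replicates 3 and 4 (vertical axis), each the difference of means of 2 arrays a group, with a dashed line where both are equal. Dusp1 lies on the line at 3.06 and 3.04, Dusp8 lies below it at 1.85 and 1.01, and Dusp9 has opposite signs at -1.16 and 0.81.

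The number of probes well above background ran from 28665 to 34472 on the Control arrays and from 24908 to 33402 on the Dex arrays, lowest on Dex 2, Dex 1 and Control 1, and no spot was saturated. Without these 3 arrays Dusp1 differed by 3.16 and Dusp8 by 1.13 on the log2 scale, and both were called (limma, adjusted p = 0.0197 and 0.0436). Dusp9 then differed by 0.92 and Dusp6 by 0.76, against -0.17 and -0.03 with all arrays, and neither was called (limma, adjusted p = 0.05002 and 0.281). Dusp16 then differed by -0.03, against 0.38 with all arrays (limma, adjusted p = 0.921). Slide 1 held Control 1 and Dex 3, slide 2 the other Control arrays and slide 3 the other Dex arrays. The markers of the labeled cell type were present. All 9 double positive thymocyte markers on the array (of 10 listed) were well above background on all 8 arrays and 0 were called, and their summed signal, over 8 probes, was 17.37 to 17.68 in Control and 17.10 to 17.53 in Dex on the log2 scale. The macrophage, B cell, stromal and erythroid lists had 0 called genes, and the endothelial list had 1 of 4, Pecam1, higher in Dex by 1.36 (limma, adjusted p = 0.0208), which lost its call in the fit blocked by replicate (adjusted p = 0.108). The other 3 endothelial markers differed by 0.53 (Cdh5), 0.78 (Tek) and -0.68 (Kdr), and the summed endothelial signal was 8.99 to 10.26 in Control and 8.50 to 9.81 in Dex. Among the 8 macrophage markers 5 had higher means in Dex. Mrc1, the mannose receptor, read 3.37 to 4.91 in Control and 5.20 to 6.81 in Dex, a difference of 2.12 (limma, adjusted p = 0.0870), and C1qa and C1qb differed by 0.72 and 0.84 with overlapping arrays. Csf1r and Lyz differed by 0.12 and 0.21, and Cd14, Cd68 and Emr1 by -0.77, -0.12 and -0.15. The summed macrophage signal, over all 8 markers, of which Lyz was the brightest, was 12.09 to 12.56 in Control and 12.005 to 13.05 in Dex. The part of these other cells in the Dusp1 and Dusp8 differences was not tested.

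The genes whose signal followed Dusp1 most closely over the 8 arrays, among 10609 probes with a gene symbol and a signal well above background on all arrays, were Axl (Pearson r = 0.998), Itgae (0.997) and Dopey2 (0.996). Axl, a receptor tyrosine kinase of the clearance of dying cells, was higher by 1.97. Itgae, the integrin chain that holds T cells to epithelium, was higher by 4.02, and Dopey2 by 1.37, all on the log2 scale. At the other end was Ptpn7 (r = -0.988), itself a phosphatase of ERK and p38 in blood cells. These correlations rest largely on the gap between the groups, and they are given as a description.

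The other genes of the MAP kinase pathways were followed as 8 lists of 113 genes, of which 99 were on the array. Of these 99, 1 was called, or 1.01% beside 0.778% of all probes, and the called gene was lower in Dex. By sign alone 48 were higher and 51 lower, the median log2 difference was -0.04 against 0.00 over all probes, and 17 of the 99 had an unadjusted p below 0.05, beside 10.6% of all probes. All Dex arrays lay above all Control arrays for 5 of the 99, beside 4.60% of probes. They lay below for 9 of the 99, and the share of all probes lying below was not counted. Dusp1 stood above each of the 99, whose highest log2 difference was 1.28.

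**Figure D4:**
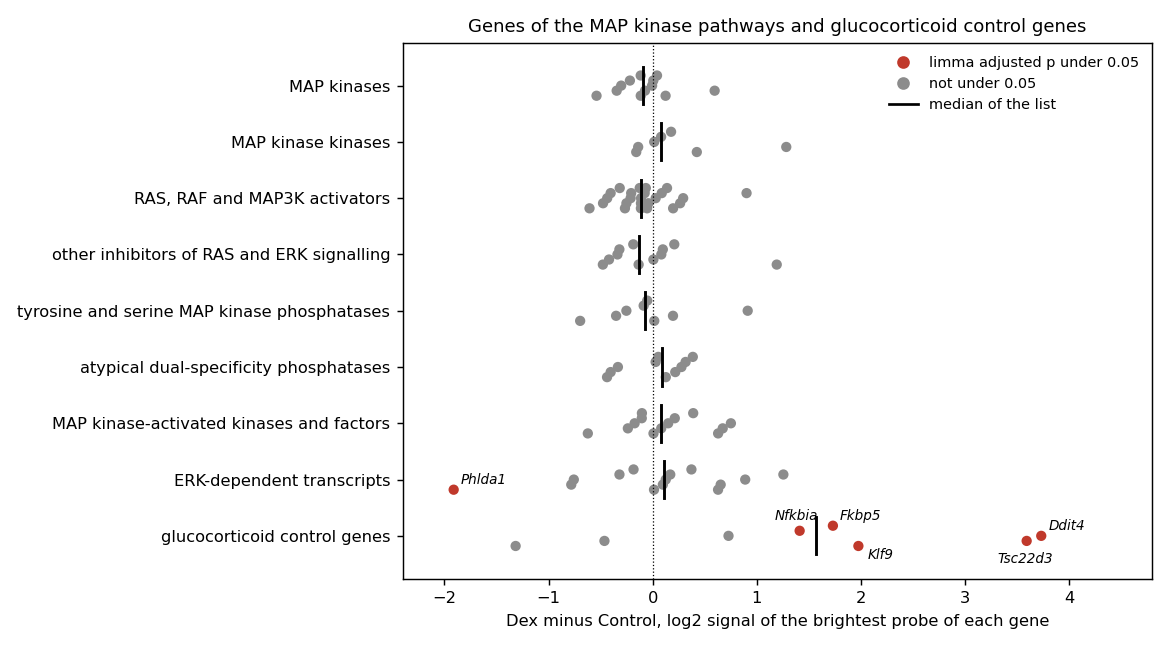
Log2 difference Dex minus Control of the brightest probe of each gene (1 point a gene) in the 8 MAP kinase pathway lists and the list of glucocorticoid control genes, with the list median as a vertical bar and red for a limma adjusted p under 0.05. Phlda1 is the only called gene of the pathway lists, while 5 of the 8 control genes are called, all higher.

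The kinases that the phosphatases act on were not called. Of 12 MAP kinases on the array 0 were called by limma (1 with an unadjusted p below 0.05), and the median was -0.09. Mapk9, which encodes JNK2, read 11.37 ± 0.21 in Control and 10.83 ± 0.12 in Dex (SD, n = 4 each). On this probe, the brightest of 3, all Dex arrays were lower (difference -0.54, limma adjusted p = 0.257), and 0 of the 3 were called. Mapk13 differed by 0.60 near background (limma, adjusted p = 0.756). Of 7 MAP kinase kinases 0 were called by limma (1 unadjusted, median 0.08). Map2k7, an activator of JNK, read 6.48 ± 0.32 in Control and 7.77 ± 0.44 in Dex (SD, n = 4 each), with all Dex arrays higher (difference 1.28, limma adjusted p = 0.0970). Map2k4, the other JNK activator, differed by 0.42 (limma, adjusted p = 0.650) with overlapping arrays.

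Further upstream, 0 of 24 genes for RAS proteins, RAF kinases and other activators were called by limma (2 unadjusted, median -0.11). Ksr1, a scaffold of the ERK cascade, differed by 0.90 with overlapping arrays (limma, adjusted p = 0.471). Among 11 other inhibitors of RAS and ERK signaling 0 were called by limma (4 unadjusted, median -0.14). Spred2 differed by 1.19 and overlapped. Spry1, a Sprouty inhibitor of receptor signaling, was lower on all Dex arrays by its brighter probe. The group means differed by -0.48 (limma, adjusted p = 0.264), and 0 of its 2 probes were called.

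Other phosphatases that can act on MAP kinases were not called either (0 of 8 by limma, 1 unadjusted, median -0.07). Ptpn7 read 11.27, 11.26, 11.05 and 11.15 on Control arrays 1 to 4 and 10.59, 10.56, 10.45 and 10.34 on Dex arrays 1 to 4. All Dex arrays were below all Control arrays, so Ptpn7 and Dusp1 lay on opposite sides. The Ptpn7 difference was -0.70 (SE 0.14), and it did not pass the threshold (limma, adjusted p = 0.0905). Ptprr differed by 0.91 and was well above background on only 2 of 8 arrays. Of 10 genes listed as atypical dual-specificity phosphatases, 0 were called by limma and 0 had an unadjusted p below 0.05 (median 0.09). The largest differences among them were -0.44 for Styxl1 and -0.40 for Dusp19, with overlapping arrays.

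Downstream of the kinases, 0 of 13 activated kinases and transcription factors were called by limma (2 unadjusted, median 0.08). The largest differences were 0.75 for Rps6ka2 and 0.67 for Elk1, both overlapping and neither among those 2. For 1 other gene all Dex arrays were higher, and for 1 all were lower. Of 14 transcripts that depend on ERK activity 1 was called, lower, and 6 had an unadjusted p below 0.05 (median 0.11). The called gene was Phlda1, which responds to growth factor and T cell receptor signals. It read 12.87, 13.25, 12.60 and 12.83 on Control arrays 1 to 4 and 10.99, 10.64, 10.98 and 11.30 on Dex arrays 1 to 4. The difference was -1.91 (SE 0.21, limma adjusted p = 0.00710), all Dex arrays were lower, and the other of its 2 probes was called too. With the replicate number as a block its adjusted p was 0.0924, and with slide as a fixed block 0.771 (limma).

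**Figure D5:**
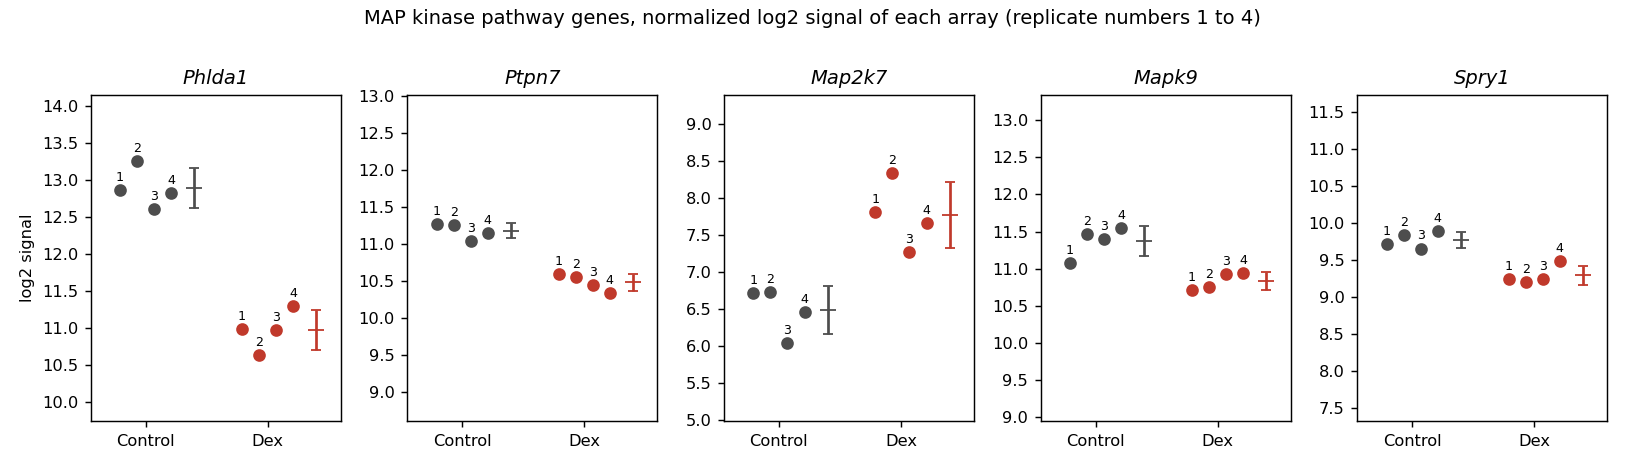
Normalized log2 signal (vertical axis) of 5 MAP kinase pathway genes on the 4 Control arrays (gray) and the 4 Dex arrays (red), with replicate numbers and with the mean and SD of each group at its right. The 5 are among the pathway genes whose groups lie apart, lower in Dex for Phlda1, Ptpn7, Mapk9 and Spry1 and higher for Map2k7. Only Phlda1 had a limma adjusted p below 0.05.

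Genes known to respond to glucocorticoids were listed as controls with earlier results of these data known, so they are no independent check of the treatment. Of these, 5 of 8 were called, all higher, beside 0.563% of all probes called higher, and the list median was 1.57. Ddit4 rose by 3.73, Tsc22d3 by 3.59, Klf9 by 1.98 and Fkbp5 by 1.73 on the log2 scale. The fifth was Nfkbia, higher by 1.41 (limma, adjusted p = 0.00643), which lost its call in the blocked fit (adjusted p = 0.0673). Of the 3 that were not called, Sgk1 was lower on all Dex arrays, with a difference of -1.32 (limma, adjusted p = 0.0503), and it was called lower in 6 of 20 alternative settings. Per1 differed by 0.73, with all Dex arrays higher, and Zfp36 by -0.46 with overlapping arrays (limma, adjusted p = 0.270 and 0.809). Dusp1, at 3.05, lay between Tsc22d3 and Klf9 in the size of its change.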

How the data were processed

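The authors labeled RNA with Cy3 and read spots by Feature Extraction (version 9.5.3.1, default settings for 1 color, with background subtraction). Each array's deposited intensity is on its own scale. The authors also deposited a log2 table, quantile normalized and summarized by median polish, which equals values recomputed here with all spots kept to within 5e-09.

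Here the processed intensities were log2 transformed, quantile normalized and summarized by median polish over 41012 probes, leaving out spots marked as outliers (16 missing values). limma (version 3.58.1, R version 4.3.3) compared Dex with Control on all 8 arrays, with lmFit and eBayes, two-sided, no block, and Benjamini-Hochberg adjustment at 0.05. The permutation statistic of the methods was not run. The methods speak of 3 biological replicates without naming arrays, so all 4 arrays of each group were kept.

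The members and lists were chosen with earlier results of these data known. Named genes are all members, up to 4 called genes of each list with the largest absolute difference (if none was called, the 2 largest), and the 3 genes most and the 1 least correlated with a called member. Nfkbia, Sgk1, Per1, Zfp36, Pecam1, Mrc1, C1qa, C1qb, the other macrophage and endothelial markers and the immediate early genes of the closing section fall outside this rule and were chosen after their values were seen. The brightest probe stands for a gene, and 3 genes of the lists were named through a reference table. The values of 1 gene that this rule names are not reported here. Arrays of the same replicate number deviated from their group means together (r = 0.397, 0.129, 0.55 and 0.184). Equal numbers were therefore treated as pairs in the fit with the replicate block, and not in the main fit. The labels do not say that they share a preparation, and these correlations do not establish it. The number of arrays limits the precision. Slides were told apart by the array barcodes in the files.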

Additional observations from a re-analysis of the deposited data

Results flagged for a closer look

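The 64 groups of 4 arrays examined covered the members and the other genes named by the rule above, and no gene chosen outside it. Of these, 3 had an array far from the other 3 by Dixon's ratio at its 95% limit. Chance gives about 1 in 20 such groups. Dusp2 on Dex 3 read 10.81, below the other Dex arrays at 11.36 to 11.45. Dusp4 on Control 3 read 6.781, above the other Control arrays at 6.03 to 6.15. Spry1 on Dex 4 read 9.49, above the other Dex arrays at 9.21 to 9.25. Without Dex 3 and without Control 3, neither Dusp2 nor Dusp4 passed the test (limma, adjusted p between 0.719 and 0.978 for Dusp2 and between 0.727 and 0.997 for Dusp4 over all 8 arrays left out in turn).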

How the results depend on the processing

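Dusp1 was higher under all 20 alternatives and called in 19, with adjusted p from 6.86e-05 to 0.136 (limma). With slide as a fixed block it differed by 3.55 and was not called, because the slide that holds both groups has 1 array of each. The 8 fits that left out an array gave 2.93 to 3.16 for Dusp1, all called, and 1.21 to 1.62 for Dusp8, none called. Dusp8 was called with normexp (1.41, adjusted p = 0.0331), with dim probes left out (1.43, 0.0424), with slide as a random block (1.56, 0.00722), with replicates 1 and 2 against 3 and 4 as a term (1.43, 0.0480), with a variance trend (1.43, 0.0189) and without Control 1, Dex 1 and Dex 2 (1.13, 0.0436). The cause was not tested. The last setting and the removal of the G and C trend were chosen after seeing the data.

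The count of called members was 1 and became 2 under those 6 settings and 0 with slide as a fixed block. The count of called genes in the 8 pathway lists was 1 and became 5 with normexp, 2 with dim probes left out or a variance trend, 0 with the replicate block or slide as a fixed block, 9 with slide as a random block, 3 with the replicate term and 14 without the 3 arrays. Over all probes the main fit had 319 calls (231 higher, 88 lower). With the replicate block this became 81, and with scaling to the 75th percentile 166 (133 higher, 33 lower). It was 915 with normexp (497 higher, 418 lower) and 562 of 28476 probes with dim probes left out. Slide as a random block gave 1838, the replicate term 670 and a variance trend 726. With slide as a fixed block the count was 1. Without the 3 arrays it was 4671 (2197 higher, 2474 lower), and it ran from 96 to 249 with 1 array left out. The 5 called glucocorticoid control genes became 4 with the replicate block, 2 with scaling to the 75th percentile and 0 with slide as a fixed block. Pecam1 was called in 11 of 20 alternatives. The replicate block, which pairs arrays of equal replicate number, left Dusp1 called (limma, adjusted p = 0.0141) and 1 member called. Of the other named genes, the block ended the calls of Phlda1, Nfkbia and Pecam1, given above, and of Dopey2 (adjusted p = 0.0669).

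On the slide that holds both groups, the difference was 3.55 for Dusp1, 0.65 for Dusp8, -0.62 for Dusp2, 0.97 for Dusp4, 1.77 for Dusp6, -1.02 for Dusp7, 1.37 for Dusp9 and 2.03 for Dusp10, each from 1 array a group. Within replicates 1 and 2, Dusp8 differed by 1.85 and within replicates 3 and 4 by 1.01. Each member has 1 probe, so the mean over probes gave no other value. Dusp7 and Dusp10, well above background on 2 and 4 of 8 arrays, are limited by signal.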

Other observations

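Among the transcripts that depend on ERK activity, the values of 6 immediate early genes are given here, which were chosen after their values were seen. Fos read 5.69 ± 0.28 in Control and 6.94 ± 0.45 in Dex, a log2 difference of 1.26 (limma, adjusted p = 0.0955). Fosb differed by 0.63 and Junb by 0.65 (limma, adjusted p = 0.288 and 0.347). For these 3 genes all Dex arrays lay above all Control arrays, and none was called. Egr1 differed by -0.78, Egr2 by -0.76 and Egr3 by 0.13, with overlapping arrays (limma, adjusted p = 0.449, 0.747 and 0.907).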
